A study of Mus musculus with 6 samples.

Results

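The 10 core genes of the circadian clock were followed in cardiomyocyte cultures that received HMGB2. They are Arntl, Clock, Per1, Per2, Per3, Cry1, Cry2, Nr1d1, Nr1d2 and Dbp, chosen by gene symbol, and all 10 were found among the 56691 gene rows of the count table. The cells were primary cardiomyocytes of neonatal mouse hearts. The HMGB2 cultures received the adenovirus Ad5-cTNT-HMGB2, which carries HMGB2, a chromatin protein that bends DNA, behind the cardiac troponin T promoter, and the vector cultures received Ad5-cTNT without it. Each group had 3 libraries of total RNA and no other treatment or genetic change is given. The cTNT promoter is active in cardiomyocytes, and the virus was thus built for expression in these cells, while the libraries read RNA of the whole culture. The time of collection, the interval after infection, the amount of virus and any step to synchronise the cells are not stated in the labels.

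The mammalian clock is a feedback loop of transcription. BMAL1, the product of Arntl, pairs with CLOCK, binds E-box sequences and switches on the Per, Cry, Nr1d and Dbp genes. The PER and CRY proteins then return to the nucleus and block BMAL1 and CLOCK, while REV-ERB alpha and beta, the products of Nr1d1 and Nr1d2, repress Arntl through ROR elements that the ROR receptors activate. In heart muscle the clock is known to time genes of fuel use and of ion channels. Cells in culture keep their clocks but drift out of step when they are not synchronised, and the average over a dish then flattens.

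The promoters of the members were searched for sequences that clock factors are known to bind. RefSeq windows on GRCm38.p6, from 250 bases before to 50 after the start, were available for 9 of the 10 members, all but Per2, with 13 windows in all. The elements searched on both strands were the E-box CACGTG (in 7.15% of all 32851 promoter windows of the table), the E-prime box CACGTT (4.68%), the D-box TTATGTAA or TTACGTAA, bound by DBP (1.06%), the ROR element TAGGTCA (2.61%), the cAMP element TGACGTCA (1.79%) and a heat shock element of 3 alternating units (0.603%). Of the 13 windows, 2 held an E-box, 3 an E-prime box, 1 a D-box, 1 a ROR element, and 0 a cAMP or heat shock element. The windows of 3 members (Clock, Dbp and Nr1d2) held no match, nor did the other window of Arntl or the other window of Per1. Capitals mark the matches in the sequences below, read 5′ to 3′ on the strand of the gene. The Arntl window is shown because Rora, whose product binds ROR elements, rose with HMGB2, as described further on, and the Cry1, Per1 and Per3 windows because they hold E-box, E-prime box and D-box matches. A match is a description of the letters and was not tested as a binding site.
Arntl, chr7:113207261-113207560, plus strand, ROR element 31 bases after the start: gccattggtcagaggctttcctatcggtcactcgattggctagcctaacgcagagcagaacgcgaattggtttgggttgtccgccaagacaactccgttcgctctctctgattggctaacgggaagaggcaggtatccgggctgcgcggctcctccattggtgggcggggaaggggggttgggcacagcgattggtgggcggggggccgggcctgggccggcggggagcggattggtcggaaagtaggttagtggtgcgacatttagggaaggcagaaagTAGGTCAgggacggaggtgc
Cry1, chr10:85185005-85185304, minus strand, E-prime box from -79 and E-box from -60: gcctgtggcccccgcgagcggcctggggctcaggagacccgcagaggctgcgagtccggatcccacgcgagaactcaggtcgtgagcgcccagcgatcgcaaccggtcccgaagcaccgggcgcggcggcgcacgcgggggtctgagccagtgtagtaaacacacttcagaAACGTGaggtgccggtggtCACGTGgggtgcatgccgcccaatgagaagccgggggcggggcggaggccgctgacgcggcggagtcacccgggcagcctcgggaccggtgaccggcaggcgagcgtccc
Per1, chr11:69098699-69098998, plus strand, E-box from -166: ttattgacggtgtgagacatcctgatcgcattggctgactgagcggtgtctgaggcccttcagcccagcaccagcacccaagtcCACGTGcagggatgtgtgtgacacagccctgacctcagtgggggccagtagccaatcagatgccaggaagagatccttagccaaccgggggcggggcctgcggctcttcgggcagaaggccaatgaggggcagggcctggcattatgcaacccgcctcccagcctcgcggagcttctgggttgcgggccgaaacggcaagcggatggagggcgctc
Per3, chr4:151044616-151044915, minus strand, 2 D-boxes from -205 and -158: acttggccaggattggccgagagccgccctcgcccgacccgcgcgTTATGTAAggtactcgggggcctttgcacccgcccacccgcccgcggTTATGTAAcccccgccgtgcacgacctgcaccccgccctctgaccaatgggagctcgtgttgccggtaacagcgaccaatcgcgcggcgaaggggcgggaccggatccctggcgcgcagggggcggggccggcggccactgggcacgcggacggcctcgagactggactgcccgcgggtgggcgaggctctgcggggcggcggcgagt

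The libraries held between 12498215 and 16618365 counts, and 15429 genes passed the filter on low counts, all 10 members among them, with 41 to 2220 counts of a member in a library. Hmgb2 itself had 184 ± 10.9 CPM with HMGB2 and 42.6 ± 5.59 CPM with the vector (SD, n = 3 each), so the label holds. The libraries HMGB2 3 and vector 1 stood apart from the others of their group, and their deviation ran with gene length over 12394 genes (Spearman's rho -0.50 and -0.53), so values without both are given where they matter. The rho of the other libraries was positive, from 0.33 in HMGB2 1 to 0.41 in vector 3. CPM are read counts scaled to the depth of each library. Markers of other heart cells were detected, none of them at 0 in both groups. The 8 cardiomyocyte markers summed to 21231 to 21485 CPM with HMGB2 and 14489.8 to 15385 CPM with the vector, and 6 of 8 rose. The 8 fibroblast markers summed to 4404 to 4497 CPM with HMGB2 and 4954 to 5028 CPM with the vector, with 2 lower. The 8 endothelial markers summed to 2621 to 2682 CPM with HMGB2 and 3001 to 3046 CPM with the vector, with 2 lower. The 8 smooth muscle and pericyte markers summed to 1271 to 1373 CPM with HMGB2 and 1307 to 1393 CPM with the vector, with 1 higher and 2 lower. The 8 macrophage markers summed to 33.8 to 39.9 CPM with HMGB2 and 48.6 to 53.2 CPM with the vector, with 3 lower. Against these counts, 14.4% of all tested genes were higher and 10.8% lower. The number of lower endothelial markers was 0 without HMGB2 1, HMGB2 2, vector 2 or vector 3 and 1 without vector 1. That of fibroblast markers was 1 without HMGB2 1 or HMGB2 2 and 4 without vector 1, that of macrophage markers 1 without vector 2, and that of smooth muscle and pericyte markers 4 without vector 1. Without vector 1 and HMGB2 3 together, 6 endothelial, 6 fibroblast and 4 smooth muscle and pericyte markers were lower. Over all genes 2986 were lower in that setting, against 1662 with all libraries. All of these cell types have a clock, the clock transcripts cannot be assigned to one of them in bulk RNA, and fewer cells of a type and less RNA per cell cannot be told apart. The part of cell composition in the results below was not tested.

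None of the 10 clock genes passed the threshold, in a comparison in which HMGB2 and vector differed at many genes. With edgeR (Benjamini-Hochberg adjusted p under 0.05 over all genes tested), 0 members were higher and 0 lower, against 25.2% of all tested genes called (14.4% higher and 10.8% lower). DESeq2 and limma called 0 as well, and 1 member, Nr1d2, had an unadjusted edgeR p under 0.05, against 36.5% of all tested genes. Among the genes whose mean level lay in the range of the members (3.95 to 127 CPM), 27.5% of 10041 were called. The log2 fold changes of the members ran from -0.18 (Per1) to 0.32 (Dbp), 5 positive and 5 negative, with a median of 0.0094 and a median size of 0.13, while the median over all tested genes was -0.0022 and the median size 0.23. The standard errors of the members had a median of 0.126, that of all tested genes being 0.125. Each member's 95% interval lay within a 2-fold change in either direction, and the outermost bounds were 0.707-fold for Per2 and 1.71-fold for Dbp. A missed threshold does not show that levels were equal, and smaller changes lie inside these intervals.

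**Figure D1:**
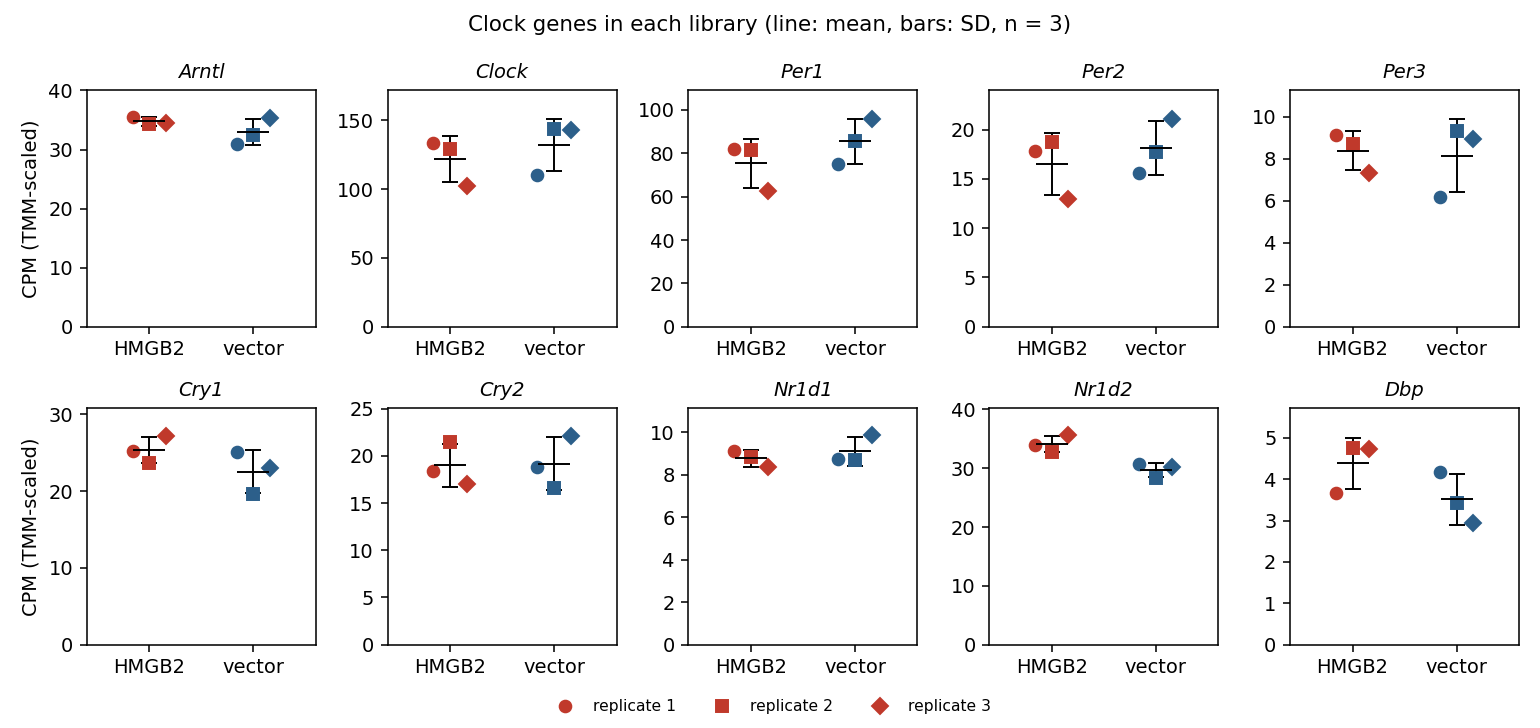
Level of each clock gene in every library, in CPM on TMM-scaled library sizes, with the HMGB2 group left (red) and the vector group right (blue), marker shape giving the replicate, and the mean ± SD of 3 libraries in black. The groups overlap in every panel but that of Nr1d2, and HMGB2 3 and vector 1 (a red diamond and a blue circle) are lowest in their groups for Clock, Per1, Per2 and Per3.

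The activators of the loop were close in both groups. Arntl (ENSMUSG00000055116, chromosome 7, 113207465 to 113314126, plus strand, GRCm38) had 35.5, 34.3 and 34.4 CPM in the HMGB2 libraries and 31.0, 32.4 and 35.3 CPM in the vector libraries. The groups overlapped, vector 3 lying among the HMGB2 libraries. The log2 fold change was 0.079 (SE 0.083, 95% interval -0.11 to 0.27, adjusted p by edgeR = 0.540), and this was one of the most closely measured members, with a 95% interval of the fold of 0.928 to 1.20. Clock (ENSMUSG00000029238, chromosome 5, 76209868 to 76304792, minus strand) had 133, 129 and 102 CPM with HMGB2 and 110.4, 143 and 143 CPM with the vector. The spread inside each group, with HMGB2 3 and vector 1 low, was wider than the difference between them (log2 fold change -0.12, SE 0.13, adjusted p by edgeR = 0.543). The difference was -0.0078 without HMGB2 3 and -0.23 without vector 1, neither past the threshold, so its size depended on each of them. Over the 6 leave-outs it ran from -0.23 to -0.0078, and the values without HMGB2 1, vector 2 and vector 3 were -0.19, -0.059 and -0.063. Without both HMGB2 3 and vector 1 it was -0.12 and passed the threshold (adjusted p by edgeR = 0.0344). In that setting more genes were called in general, 3265 higher and 2986 lower, against 2224 and 1662 with all libraries.

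The Period genes, the early repressors whose proteins carry CRY into the nucleus, had lower means with HMGB2 for Per1 and Per2, within the spread of the libraries. Per1 (ENSMUSG00000020893, chromosome 11, 69095217 to 69109960, plus strand) had 82.0, 81.6 and 62.4 CPM in the HMGB2 libraries and 75.1, 85.5 and 95.8 CPM in the vector libraries. The lowest value of all was HMGB2 3 and the highest vector 3, with the rest intermingled, and the log2 fold change of -0.18 (SE 0.12, 95% interval -0.46 to 0.096) did not pass the threshold (adjusted p by edgeR = 0.326). It was -0.062 without HMGB2 3, -0.095 without vector 3 and -0.27 without vector 1, none past the threshold. Without both HMGB2 3 and vector 1 it was -0.15 with an adjusted p of 0.0515. Per2 (ENSMUSG00000055866, chromosome 1, 91415982 to 91459324, minus strand) had 17.8, 18.8 and 13.0 CPM with HMGB2 and 15.6, 17.7 and 21.0 CPM with the vector. Its order of libraries was nearly that of Per1, HMGB2 3 again being the lowest and vector 3 the highest, and the log2 fold change of -0.14 (SE 0.16, adjusted p by edgeR = 0.581) turned to 0.012 without HMGB2 3. Per3 (ENSMUSG00000028957, chromosome 4, 151003652 to 151044665, minus strand), which is not needed for the loop to run, had 9.14, 8.69 and 7.33 CPM with HMGB2 and 6.17, 9.35 and 8.94 CPM with the vector. Vector 1 was the lowest library, and leaving it out turned the log2 fold change of 0.035 (SE 0.18, adjusted p by edgeR = 0.911) to -0.13.

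Of the Cryptochromes, which repress BMAL1 and CLOCK directly, neither passed the threshold. Cry1 (ENSMUSG00000020038, chromosome 10, 85131700 to 85185064, minus strand), whose promoter with an E-box and an E-prime box is printed above, had 25.2, 23.7 and 27.2 CPM in the HMGB2 libraries and 25.1, 19.6 and 23.0 CPM in the vector libraries. Vector 1 lay among the HMGB2 libraries, and the log2 fold change of 0.17 (SE 0.11, 95% interval -0.079 to 0.42) did not pass the threshold (adjusted p by edgeR = 0.305). Without vector 1 it was 0.25 and without vector 2 it was 0.078. Cry2 (ENSMUSG00000068742, chromosome 2, 92403646 to 92434043, minus strand) had 18.5, 21.5 and 17.0 CPM with HMGB2 and 18.8, 16.6 and 22.1 CPM with the vector. Both groups covered nearly the same range, with a log2 fold change of -0.016 (SE 0.13, adjusted p by edgeR = 0.948) that changed sign without HMGB2 1 (0.010), HMGB2 3 (0.060) or vector 3 (0.098).

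Nr1d2 was the member nearest to a call. This REV-ERB beta gene (ENSMUSG00000021775, chromosome 14, 18204054 to 18239127, minus strand) had 34.0, 32.8 and 35.6 CPM in the HMGB2 libraries and 30.7, 28.4 and 30.2 CPM in the vector libraries. All 3 HMGB2 libraries lay above all 3 vector libraries, as the groups did in one order or the other for 40.5% of all tested genes. The log2 fold change was 0.20 (SE 0.082, 95% interval 0.013 to 0.38, a fold of 1.15), and it missed the threshold (adjusted p by edgeR = 0.113). It stayed between 0.16 and 0.23 over 14 alternatives, with adjusted p-values of 0.0827 to 0.319. AC170187.1, a name not found in the count table, is 96.1% identical to part of the longest transcript of Nr1d2 (29.7%). Reads of that part of Nr1d2 may be lost or misassigned. Its relative Nr1d1 (ENSMUSG00000020889, chromosome 11, 98767932 to 98775333, minus strand), the gene of REV-ERB alpha and usually the more strongly rhythmic of the pair, had 9.14, 8.83 and 8.36 CPM with HMGB2 and 8.74, 8.69 and 9.87 CPM with the vector. These values overlapped throughout, with a log2 fold change of -0.054 (SE 0.12, 95% interval -0.32 to 0.22, adjusted p by edgeR = 0.791). Exons of Nr1d1 overlap those of Thra, a thyroid hormone receptor gene on the other strand, over 263 bases (8.55% of the exon bases of Nr1d1), and Thra rose by 0.57 on the log2 scale (adjusted p by edgeR = 0.00176). The strand setting of the counting is not given, so reads of this stretch may be lost or misassigned.

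Dbp, a transcription factor at the output of the clock and in rhythmic tissues one of its strongest reporters, had the largest fold change and the largest error of the 10. Dbp (ENSMUSG00000059824, chromosome 7, 45705088 to 45710203, plus strand) had 3.67, 4.76 and 4.73 CPM in the HMGB2 libraries and 4.17, 3.43 and 2.93 CPM in the vector libraries, from 41 to 78 counts each. HMGB2 1 lay below vector 1, so the groups overlapped. The log2 fold change was 0.32 (SE 0.20, 95% interval -0.13 to 0.78, adjusted p by edgeR = 0.287). Its sign was positive under all 14 alternatives, from 0.20 to 0.46, none past the threshold. Exon bases shared with Sphk2 on the other strand make up 18.0% of Dbp, and Sphk2 had a log2 fold change of 0.0047 (adjusted p by edgeR = 0.975).

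**Figure D2:**
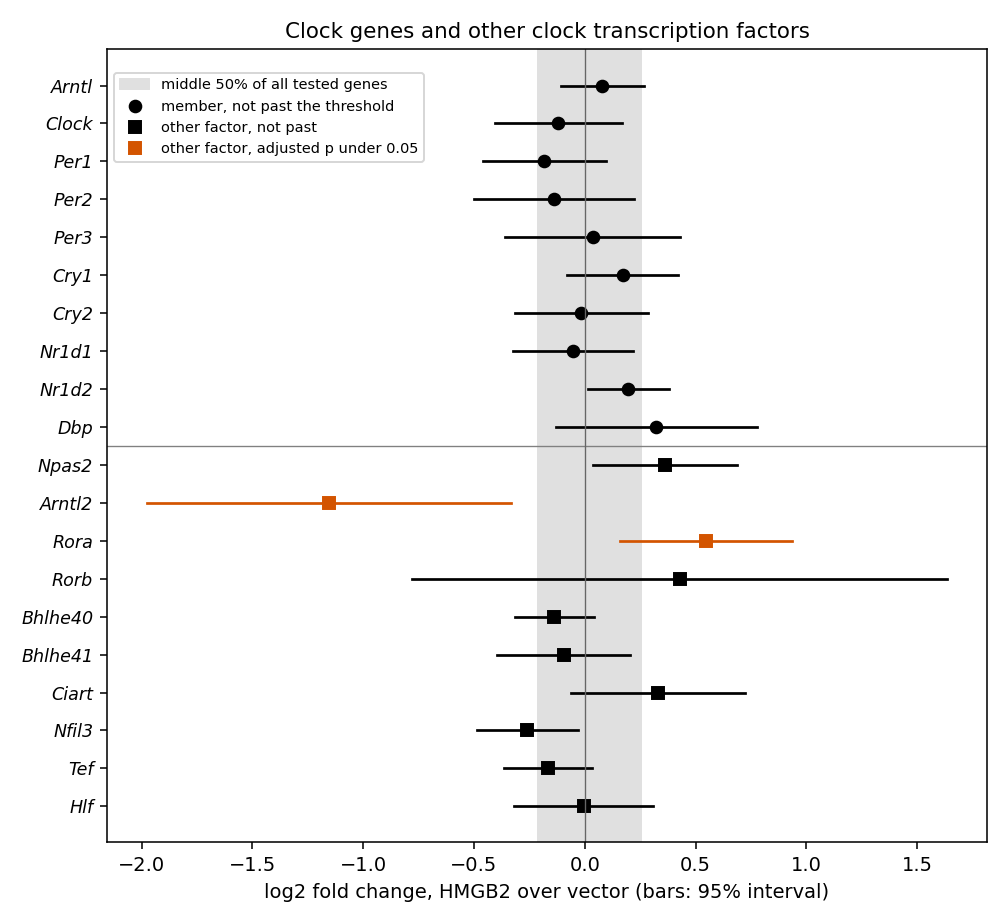
Log2 fold change of HMGB2 over vector (x axis) with its 95% interval for the 10 clock genes (circles, top) and for 10 other clock transcription factors (squares, bottom), orange where the edgeR adjusted p is under 0.05; the grey band spans the middle 50% of all tested genes, -0.21 to 0.26. Of the members only Dbp lies outside the band, and the factors shown past the threshold are Arntl2 and Rora.

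The levels of the members spanned more than their changes. Scaled by gene length, as the authors' FPKM (fragments scaled to gene length and library depth), Per1 was the highest at 14.2 ± 1.87 (SD over all 6 libraries) and Per3 the lowest at 0.857 ± 0.126. Between them came Clock at 9.22 ± 1.16, Cry1 at 7.16 ± 0.835, Nr1d2 at 5.90 ± 0.546, Arntl at 4.49 ± 0.252, Cry2 at 3.02 ± 0.359, Per2 at 2.95 ± 0.452, Nr1d1 at 2.90 ± 0.157 and Dbp at 1.32 ± 0.254 FPKM. Cry2, Per2 and Nr1d1 could not be put in order, since Cry2 lay above Per2 in 3 of 6 libraries and Per2 above Nr1d1 in 4 of 6, and Clock lay above Cry1 in 5 of 6. Every other neighbour in this order was higher in all 6 libraries.

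Within the groups, the libraries that stood apart deviated at several clock genes by more than the groups differed. In HMGB2 3, Per2 was -0.49, Per1 -0.39, Clock -0.36 and Per3 -0.28 from the mean of the other 2 HMGB2 libraries in log2 CPM, while Dbp was 0.17 and Cry1 0.15 from it. In vector 1, set against the other 2 vector libraries, Per3 was -0.56, Clock -0.37, Per2 -0.31 and Per1 -0.27, while Dbp was 0.38 and Cry1 0.24. These 6 genes, picked after their values were seen, deviated in the same direction in both libraries. A count of members below the rest of the group does not set these libraries apart: it was 7 of 10 in HMGB2 3 and in vector 1, but also 7 in vector 2, and the median deviation of the members was -0.16, -0.11 and -0.027 in these libraries and 0.18 in vector 3, where 1 member was below. Over the 10 members the deviation had a Spearman's rho of -0.59 with gene length in HMGB2 3 and of -0.79 in vector 1, and the members share library and depth. The rho was 0.59 in HMGB2 1, 0.19 in HMGB2 2, 0.43 in vector 2 and 0.53 in vector 3. Each deviation is taken from the other libraries of the group, so these values are not independent. The implied lengths run from 2992 bases for Dbp to 13726 bases for Clock. The part of length in these deviations was not tested gene by gene.

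**Figure D3:**
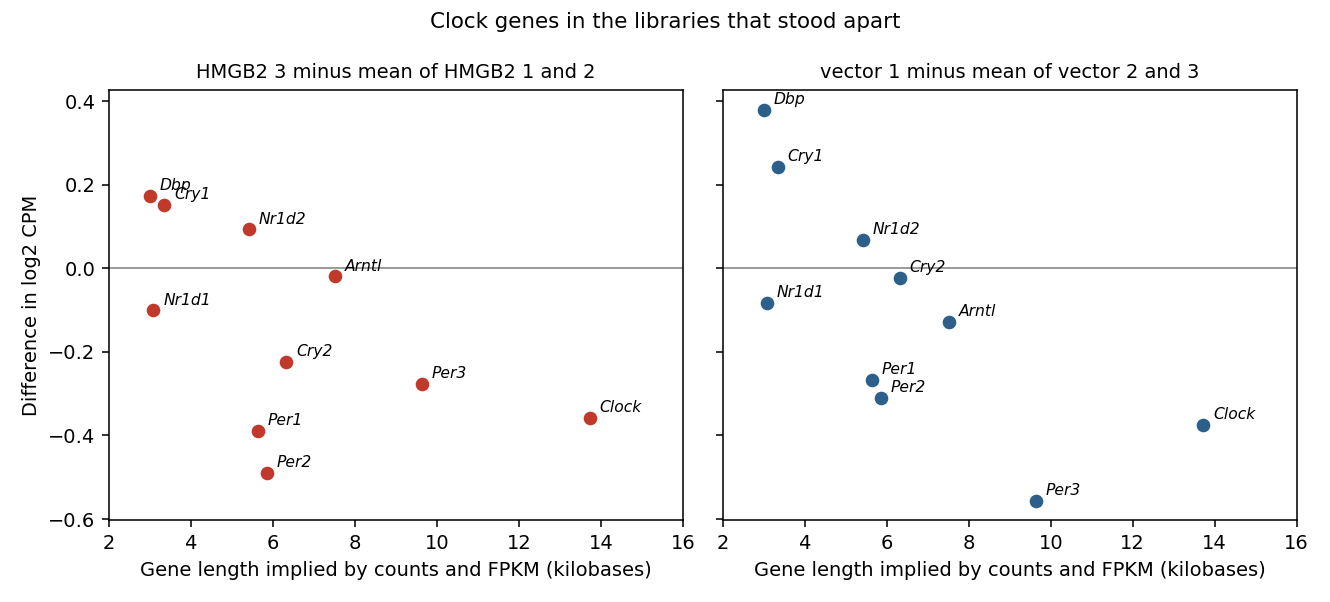
Deviation of the 10 clock genes in HMGB2 3 (left) and vector 1 (right) from the mean of the other 2 libraries of the group, in log2 CPM (y axis), against the gene length implied by the deposited counts and FPKM (x axis, kilobases). Dbp and Cry1, among the shortest, lie above 0 in both libraries, and Clock and the 3 Per genes below 0.

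The balance between Arntl and its target genes was compared within each library, which needs no scaling between libraries. In a rhythmic tissue Arntl is high when Nr1d1, Dbp and the Per genes are low, so the ratio of their counts swings widely over the day. For Nr1d1, the log2 ratio of the Arntl to the Nr1d1 count was 1.96, 1.96 and 2.04 in the HMGB2 libraries and 1.82, 1.90 and 1.84 in the vector libraries. The groups did not overlap, and their means differed by 0.13. For Per1 the log2 ratio was -1.21, -1.25 and -0.86 in the HMGB2 libraries and -1.28, -1.40 and -1.44 in the vector libraries, again without overlap, with a difference of 0.27. For Dbp it was 3.28, 2.85 and 2.86 in the HMGB2 libraries and 2.89, 3.24 and 3.59 in the vector libraries. These overlapped, and the difference of -0.24 had the other sign from those of Nr1d1 and Per1. The differences for the other denominators were 0.22 for Per2, 0.023 for Per3, 0.091 for Cry2, -0.093 for Cry1 and -0.11 for Nr1d2, all with overlapping groups. The ratio of a gene to Arntl did not overlap between the groups for 39.1% of the other tested genes, so 2 of 8 is no result about the clock genes. With 1 library left out, the difference was 0.14 to 0.34 for Per1 (lowest without HMGB2 3), 0.064 to 0.33 for Per2 (lowest without HMGB2 3), -0.42 to -0.070 for Dbp (nearest to 0 without vector 3, farthest without vector 1), -0.22 to -0.0042 for Cry1 (nearest to 0 without vector 2), 0.022 to 0.19 for Cry2 (lowest without HMGB2 3) and -0.18 to -0.073 for Nr1d2 (nearest to 0 without vector 3). For Per3 it ranged over -0.096 to 0.17, the ends being without vector 2 and without vector 1, and for Nr1d1 over 0.10 to 0.16. Without vector 1 and HMGB2 3 together the difference was 0.090 for Nr1d1 and -0.013 for Cry2, which changed sign. For the other denominators it lay within the ranges above. These ratios are descriptions and were not tested.

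**Figure D4:**
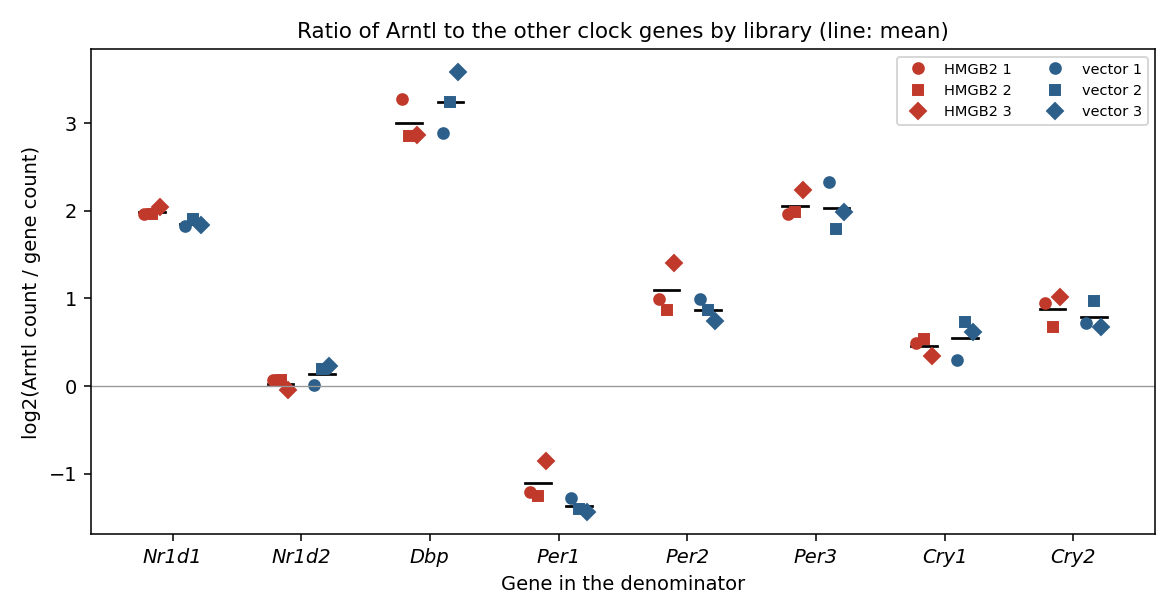
Log2 ratio of the Arntl count to the count of each other clock gene (y axis) by library, HMGB2 in red and left, vector in blue and right, with the mean of each group as a line. The groups separate for Nr1d1 and Per1, 2 of 8 ratios (39.1% of the ratios of all other tested genes to Arntl do so), by 0.13 and 0.27 between means, and the Dbp ratios lie lower on average with HMGB2 by 0.24 on the log2 scale.

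Whether the values have the form of a different clock phase was looked at through the arms of the loop. Genes driven through ROR elements and genes driven through E-boxes or D-boxes tend to peak at different times, so a shift of phase can move the arms in opposite directions. Genes within an arm need not peak together, so this grouping cannot tell what mixed signs within an arm mean for phase. The grouping that follows was made after the values were seen and has no test. Of the 5 genes of the first arm (Arntl, Clock, Npas2, Cry1 and Nfil3), 3 had a positive and 2 a negative log2 fold change, with a median of 0.079 and a range of -0.26 to 0.36. Cry1 was placed here although its searched window holds an E-box and an E-prime box and no ROR element, so the counts of both arms depend on its placing. The searched windows of Clock held no match, nor did those of Nr1d2 and Dbp, placed in the second arm. Per2 had no window, and the windows of genes other than the members were not read for this grouping. Of the 11 genes of the second arm (Nr1d1, Nr1d2, Dbp, Per1, Per2, Per3, Cry2, Ciart, Tef, Hlf and Bhlhe41), 4 were positive and 7 negative, with a median of -0.016 and a range of -0.18 to 0.33. None of these 16 genes passed the threshold (edgeR). Bhlhe40, of the same factor list as Bhlhe41, was placed in neither arm and had a log2 fold change of -0.14 (adjusted p by edgeR = 0.243). Both signs occurred within each arm, Npas2 against Nfil3 in the first and Dbp against Per1 in the second. A difference in phase between the groups was not tested, since the collection times are not stated, and clocks that run in step at like phases and clocks that run out of step cannot be told apart in such averages.

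Around the members, other clock transcription factors were called about as often as any gene. Of 11 such factors, 2 rose (Rora among them), 1 fell (Arntl2) and 8 did not pass, where 25.2% of all tested genes were called, with a median log2 fold change of -0.0058. Rora, a receptor that activates Arntl through ROR elements, had 44.6, 44.5 and 34.1 CPM with HMGB2 and 20.5, 30.2 and 33.3 CPM with the vector, separated but with vector 3 close to HMGB2 3. It was 1.46-fold higher (adjusted p by edgeR = 0.0442), a call lost without HMGB2 1 (adjusted p = 0.148), HMGB2 2 (adjusted p = 0.142) or vector 2 (adjusted p = 0.0924), so that 1 factor rose in each of these, and on FPKM (adjusted p by limma = 0.0900). Arntl, whose printed promoter holds a ROR element, was not called, with the interval of the fold given above. Arntl2, a scarce relative of Arntl, averaged 1.01 ± 0.389 CPM with HMGB2 and 2.24 ± 0.709 CPM with the vector (SD, n = 3 each) and fell by 1.15 on the log2 scale (adjusted p by edgeR = 0.0453), and 0 factors fell without HMGB2 1 (adjusted p of Arntl2 = 0.0536), HMGB2 2 (adjusted p of Arntl2 = 0.116), HMGB2 3 (adjusted p of Arntl2 = 0.116), vector 2 (adjusted p of Arntl2 = 0.102) or vector 3 (adjusted p of Arntl2 = 0.172). By DESeq2 the adjusted p of Arntl2 was 0.0629. Npas2, which can stand in for Clock, Nfil3, which represses through D-boxes, and Ciart, a rhythmic repressor of BMAL1 and CLOCK, were named after their values were seen. None passed the threshold. The log2 fold change was 0.36 for Npas2 (adjusted p by edgeR = 0.102), 0.33 for Ciart (adjusted p = 0.206) and -0.26 for Nfil3 (adjusted p = 0.0941).

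Enzymes that modify clock proteins changed in both directions. Of 11 clock kinases, ubiquitin ligases and related enzymes, 2 rose, 3 fell and 6 did not pass, with a median log2 fold change of -0.17. Of all tested genes, 25.2% were called (14.4% higher and 10.8% lower). Prkaa2, a catalytic subunit of the AMP-activated kinase that phosphorylates CRY1, had 145, 147 and 122 CPM with HMGB2 and 62.4, 83.2 and 82.3 CPM with the vector, 1.81-fold higher (adjusted p by edgeR = 0.000863). Usp2, a deubiquitinase whose own transcript is rhythmic, rose 1.35-fold (adjusted p by edgeR = 0.00667). Csnk1e, the casein kinase 1 epsilon that phosphorylates PER, averaged 76.8 ± 3.56 CPM with HMGB2 and 99.4 ± 3.94 CPM with the vector (SD, n = 3 each) and fell by 0.37 on the log2 scale (adjusted p by edgeR = 0.00479). Fbxw11, of a ubiquitin ligase that takes phosphorylated PER, fell by 0.31 (adjusted p by edgeR = 0.00655). The number of enzymes that fell was 5 without vector 1 and 6 without vector 1 and HMGB2 3 together. Over all genes 1960 and 2986 fell in these settings, against 1662 with all libraries. These are transcript levels, and no protein was measured.

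Genes known as outputs of the clock changed in both directions in either list. Beside the counts that follow, 14.4% of all tested genes were higher and 10.8% lower. Of 10 genes that are rhythmic in many tissues, 4 rose, 3 fell and 3 did not pass, with a median log2 fold change of 0.12. Nampt, the salvage enzyme of NAD, rose 1.36-fold (adjusted p by edgeR = 0.00158), and Tsc22d3, a glucocorticoid-induced factor, rose 1.39-fold (adjusted p = 0.0111, and 0.0574 without vector 2). Por, the reductase of cytochromes P450, fell by 0.34 on the log2 scale (adjusted p by edgeR = 0.00414), as did Klf9, a Krüppel-like factor (adjusted p = 0.00896, and 0.0532 without HMGB2 2). The number that rose was 2 without HMGB2 2 and 1 without vector 2, and the number that fell was 1 without HMGB2 2. Of 10 genes known to follow the cardiomyocyte clock, 8 were tested, 4 rose, 1 fell and 3 did not pass, with a median of 0.57. Kcnh2, a potassium channel gene, rose 2.87-fold (adjusted p by edgeR = 2.81e-06), Tcap, which caps titin at the Z-disc, 2.48-fold (adjusted p = 0.000398), and Bdh1, of ketone body oxidation, 1.99-fold (adjusted p = 0.000525). The gene that fell, Pik3r1, named for being the only one, lost its call without HMGB2 1, HMGB2 2, HMGB2 3, vector 2 or vector 3, and 0 genes of the list fell in each of these. These heart genes moved beside the cardiomyocyte markers, whose median log2 fold change was 0.72, and the part of that difference in them was not tested.

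Signals that can set Per1 and Per2 from outside the loop were read through their other target genes. The counts of these lists stand beside 14.4% of all tested genes higher and 10.8% lower. Heat shock factor HSF1 is known to be able to induce Per2, and all 10 HSF1 targets fell, summing to 1603 to 1778 CPM with HMGB2 and 5756 to 6224 CPM with the vector, with a median log2 fold change of -1.50 and with 10 lower whichever library was left out. Hspa8, the constitutive HSP70, had 379, 421 and 417 CPM with HMGB2 and 1622, 1696 and 1552 CPM with the vector, and Hsph1, an HSP110 chaperone, had 137, 128 and 142 CPM with HMGB2 and 433, 430.3 and 438 CPM with the vector (log2 fold changes -2.00 and -1.68, adjusted p by edgeR = 6.88e-07 and 9.62e-07). Hspa1a and Hspa1b, inducible HSP70 genes that are near-identical and can share reads, had log2 fold changes of -6.38 and -6.40. Per2 differed by -0.14 beside them, with a 95% interval of -0.50 to 0.22. Of 11 immediate early genes of CREB and serum, which share inputs with Per1, 1 rose, 6 fell and 4 did not pass, with a median of -0.32. Atf3, a stress-induced factor, fell by 0.96 on the log2 scale (adjusted p by edgeR = 0.000208), Nr4a1 and Junb fell by 0.40 and 0.31 (adjusted p = 0.0191 and 0.0178), and Dusp1 rose 1.31-fold (adjusted p = 0.00777). The call of Nr4a1 was lost without HMGB2 1 (adjusted p = 0.0866) or HMGB2 2 (0.0522) and on FPKM (0.0546, limma), and that of Junb without HMGB2 1 (adjusted p = 0.0945), HMGB2 2 (0.0586) or vector 3 (0.0521). The number that fell was 1 without HMGB2 1 and 3 without HMGB2 2, vector 2 or vector 3. Of 10 glucocorticoid receptor targets, which share that receptor with Per1, 3 rose and 3 fell, with a median of 0.19, and Fkbp5 rose 1.26-fold (adjusted p by edgeR = 0.00477). Dusp1, Klf9 and Tsc22d3 stand in this list and in another. The number that fell was 1 without HMGB2 1 and 0 without HMGB2 2, and leaving out both vector 1 and HMGB2 3 gave 6 that rose. Over all genes 3265 rose without both, against 2224 with all libraries. The part of these signals in the values of Per1 and Per2 was not tested.

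**Figure D5:**
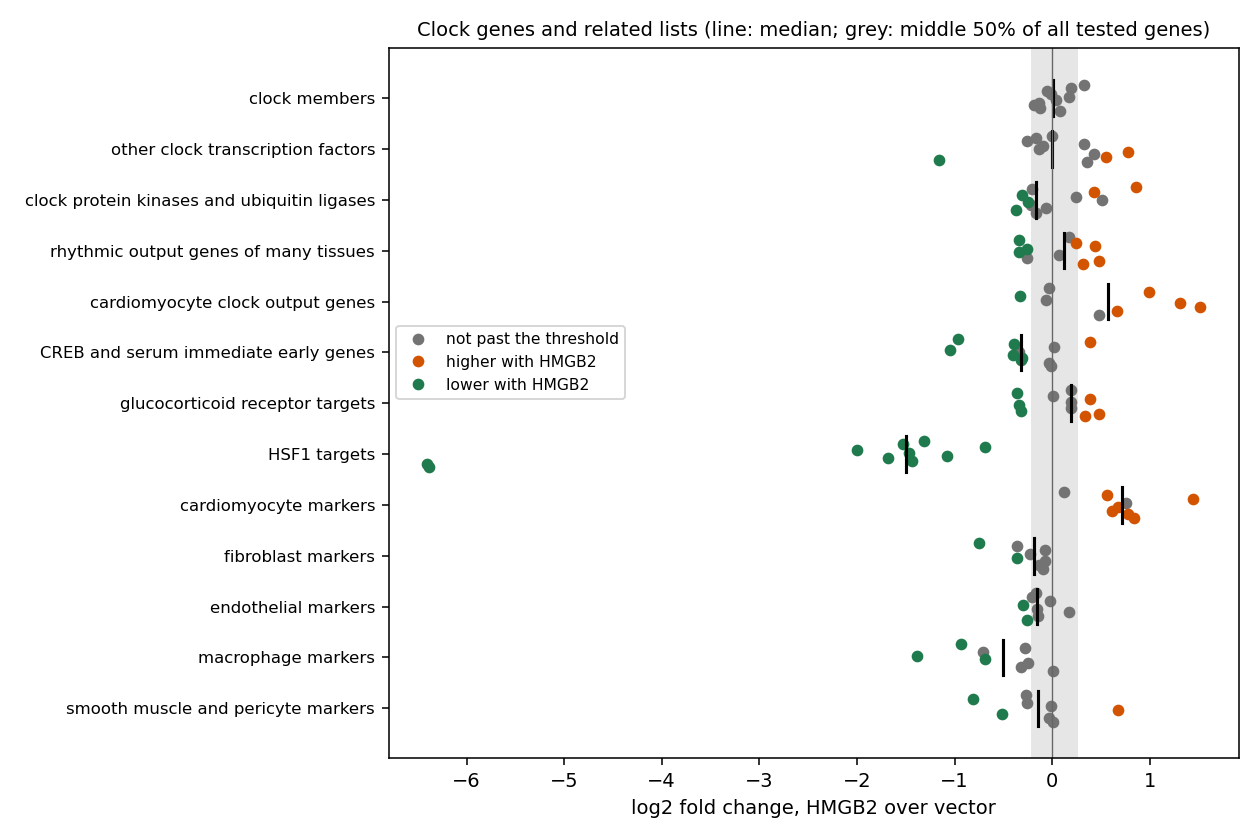
Log2 fold change of HMGB2 over vector (x axis) for the tested genes of each list (rows), orange where higher and green where lower at an edgeR adjusted p under 0.05, grey otherwise; the black line is the median and the grey band the middle 50% of all tested genes. The clock genes lie between -0.18 and 0.32 with no call, while all 10 HSF1 targets lie below 0.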

How the data were processed

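RNA sequencing was done on 3 HMGB2 and 3 vector libraries of total RNA, per the labels' protocols. The submitters' processing notes name build mm10 and, among other tools, HISAT2 2.2.1 and HTSeq 0.6.1, without roles. The authors deposited raw counts per Ensembl gene, which were tested here, and FPKM values, which were used for levels between genes and as an alternative. The gene length implied by the deposited counts and FPKM had a coefficient of variation of at most 0.0199% between libraries over 2159 well expressed genes. All per-sample columns were used, matched to samples through group abbreviation and replicate number. Positions in the deposited tables match GENCODE M21 for 1472 of 52073 identifiers, so positions are from GENCODE M21 on GRCm38.

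Genes were filtered with filterByExpr (minimum count 10, minimum total count 15) and tested with edgeR 4.0.16 in R 4.3.3 (TMM, robust quasi-likelihood F-test, group as the only term, Benjamini-Hochberg over 15429 genes, threshold 0.05). CPM use TMM-scaled library sizes, SE is taken as the size of the log2 fold change divided by the root of F, and 95% intervals use the fit's degrees of freedom and are not adjusted. Counting error and the spread between libraries enter both. An exact two-sided permutation of 3 against 3 libraries reaches 0.1 at best and is not given. Whether the replicates are separate cultures or animals is not stated, so the p-values cover only the spread among these libraries, which could be technical. Alternatives used DESeq2 1.42.0, limma 3.58.1 (pseudocount 1 on CPM, 0.1 on FPKM with a mean of at least 0.5), other scalings, no filter, a replicate block and left-out libraries. The fit was tested on simulated data with 15179 genes in the fit and 50 genes changed at each fold. It called 8% of those changed 1.25-fold, 56% at 1.5-fold and 92% at 2-fold, with 18 false calls. Changes of 1.25-fold were thus mostly missed in that simulation. Far fewer genes were changed there than the 25.2% called in the data, which makes the adjusted threshold stricter. These rates therefore do not give the sensitivity for the members. Shared sequence was found with blastn 2.17.0 against GENCODE M21 transcripts.

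The members and the 7 related lists and 5 marker lists were chosen with earlier results of these data known. The named genes are the members, Hmgb2, and of each related list up to 4 called genes in order of p, or, where fewer than 2 passed, up to 2 with the highest level. Other genes are said to be named after their values were seen, and a few genes that meet the rule are not reported here.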

Additional observations from a re-analysis of the deposited data

How the results depend on the processing

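The count of clock genes called was 0 in each direction under 13 of 14 alternatives, and without vector 1 and HMGB2 3 together 1 was lower (Clock). Over all genes, 2224 were higher and 1662 lower. The lower count was 866 to 1960 with 1 library left out (866 without HMGB2 1, 897 without HMGB2 2, 973 without vector 2) and 2986 without vector 1 and HMGB2 3 together. The higher count was 1567 to 2526 with 1 library left out and 3265 without vector 1 and HMGB2 3 together. Of the 68 tested genes of the 7 related lists, 14 were higher and 26 lower, where 14.4% of all tested genes were higher and 10.8% lower. Of those lower, 10 were HSF1 targets and 6 immediate early genes of CREB and serum, which are lists of signals from outside the loop. With 1 library left out, 15 to 28 of the related genes were lower. With the replicate number as a block, 1459 genes were higher and 754 lower, and 14 of the related genes were lower. Among the named genes, the block took the adjusted p of Fbxw11 to 0.0630, Junb to 0.0896, Nr4a1 to 0.0789, Rora to 0.105 and Arntl2 to 0.129. Deviations of same-numbered libraries correlated at -0.32, 0.23 and -0.37, and 1 of 3 HMGB2 libraries correlated best with its own number, so the numbers were not taken to pair the samples.

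The sign changed under some alternative for 4 members. Without 1 library, the log2 fold change ranged over -0.24 to 0.012 for Per2, -0.13 to 0.14 for Per3, -0.11 to 0.098 for Cry2 and -0.088 to 0.0078 for Nr1d1. Without vector 1 and HMGB2 3 it was -0.034 for Per3 and 0.044 for Cry2, which was also 0.0036 with no scaling factor and 0.0086 on FPKM. The cause was not tested. Over the pairs of an alternative and a gene recomputed singly (the members, the genes of the naming rule and a few others, not every gene of the lists), a call was lost in 56 and gained in 1, and in 58 pairs of a single list and an alternative the count moved by over 1.5 times. Of the members, Dbp had the fewest counts, 41 to 78 per library, and what depth limits was not tested.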
